A study of Mus musculus with 47 samples.

Results

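The comparison was the difference between the PF4 effect in Old mice and the PF4 effect in Young mice, that is (Old PF4 minus Old Veh) minus (Young PF4 minus Young Veh) on the log2 scale, gene by gene in the hippocampus. All 47 of the 47 libraries in the deposited table entered it, since each of the 4 groups is a term of the difference. Each library was the bulk hippocampal RNA of 1 male C57BL/6J mouse given either vehicle (Veh) or mouse platelet factor 4 (PF4), which the study injected intraperitoneally. The Young groups held 13 Veh mice aged 3.75 to 5.26 months and 12 PF4 mice aged 4.08 to 5.03 months, and the Old groups held 12 Veh mice aged 17.47 to 19.97 months and 10 PF4 mice aged 17.4 to 20.23 months. All groups shared sex, strain and tissue, all mice kept their own Pf4 gene, and 1 library number of the Old PF4 group was not analysed here. The question was whether the hippocampal transcriptome responded to PF4 differently in Old and Young mice.

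PF4 (CXCL4) is a small chemokine stored in the alpha granules of platelets and released when they are activated. It binds heparan sulfate chains with high affinity, and CXCR3 is among its receptors. The hippocampus is needed for spatial memory, and its granule and pyramidal neurons carry excitatory synapses whose receptors are held by scaffold proteins of the postsynaptic density, while gephyrin holds inhibitory receptors. In bulk tissue, fewer cells of a type and less RNA per cell cannot be told apart.

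Total counts per library ran from 2242880 to 21112900 (median 10374000). The group medians were 12203200 in Young Veh, 10515400 in Young PF4, 7730490 in Old Veh and 9565270 in Old PF4. Of the 8 libraries below 5000000 counts, called the low-depth libraries below, 1 was Young Veh, 2 were Young PF4, 4 were Old Veh and 1 was Old PF4. By the labels the Old Veh libraries were numbered 1 to 12 and the Old PF4 libraries 13 to 23, so in Old mice treatment and library number cannot be told apart. Young libraries were numbered 24 to 48 with Veh and PF4 mixed. Levels are given as CPM, read counts relative to a library total scaled by TMM factors, effects as log2 of PF4 over Veh, and the difference as the Old effect minus the Young effect, each from 1 edgeR quasi-likelihood fit of the 4 groups.

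No gene passed the test of the difference. Of 17778 genes tested, edgeR called 0 (0.0%) at an adjusted p under 0.05, and the smallest adjusted p was 0.728. At an unadjusted p under 0.05 there were 698 genes (3.93%), of which 314 (1.77%) had a difference above 0 and 384 (2.16%) a difference below 0. The balance between the directions turned in other settings, with 462 above and 396 below 0 with a length index of each library, described below, as a covariate, and 770 above and 647 below without the count filter. DESeq2 and limma-voom also called 0 genes, with 803 and 1130 at an unadjusted p under 0.05. The effects that make up the difference gave unequal counts, which was not itself tested. In Old mice edgeR called 6 genes (0.0337%) and 1091 genes (6.14%) were at an unadjusted p under 0.05, with 458 (2.58%) higher and 633 (3.56%) lower under PF4. DESeq2 called 24 and limma-voom 39. With library number or the length index as a covariate, or without the low-depth libraries, edgeR called 0. This count of 6 turned on single libraries, being 0 without Old Veh replicate 2, 3, 5 or 7 or Old PF4 replicate 5, 6, 7 or 8, 1 to 3 without Old Veh replicate 1, 6 or 8 or Old PF4 replicate 9 or 11, and 10 to 19 without Old Veh replicate 11 or 12 or Old PF4 replicate 1. In Young mice edgeR called 0 genes (0.0%), as did DESeq2 and limma-voom. There 210 genes (1.18%) were at an unadjusted p under 0.05 in edgeR, 83 (0.467%) higher and 127 (0.714%) lower. That count of 210 was 348 without Young Veh replicate 4, 465 in limma-voom, 879 without the count filter and 96 among genes with a mean of at least 5 CPM.

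The standard error of the difference was 0.12 for the median gene, against 0.092 for the Old effect and 0.084 for the Young effect. For 69.6% of the genes tested the 95% interval of the difference stayed within 0.5 of 0 on the log2 scale, and for 92.8% it stayed within 1. Among the 12808 genes with a mean of at least 5 CPM these shares were 91.2% and 99.2%, and among the 4970 genes below that level the share within 0.5 was 13.8%.

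Effects in Old and Young mice come from separate mice, and across genes their estimates were not correlated. Pearson's r between the Old and the Young effects over the 17778 genes was 0.0055 and Spearman's rank coefficient was -0.030. Genes are not independent replicates here and differ in depth. The median absolute effect, 0.064 in Old and 0.041 in Young mice, was under the median standard error in each. Coefficients near 0 thus cannot tell unrelated effects from shared ones hidden by error. Of all genes, 52.5% had effects of opposite sign in the 2 ages. Among the 698 genes at an unadjusted p under 0.05 for the difference, 652 (93.4%) had opposite signs, which the choice of these genes favours, and in 567 (81.2%) the Old effect was the larger in size, against 62.7% over all genes tested. Their median absolute effect was 0.18 in Old mice and 0.077 in Young mice.

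**Figure D1:**
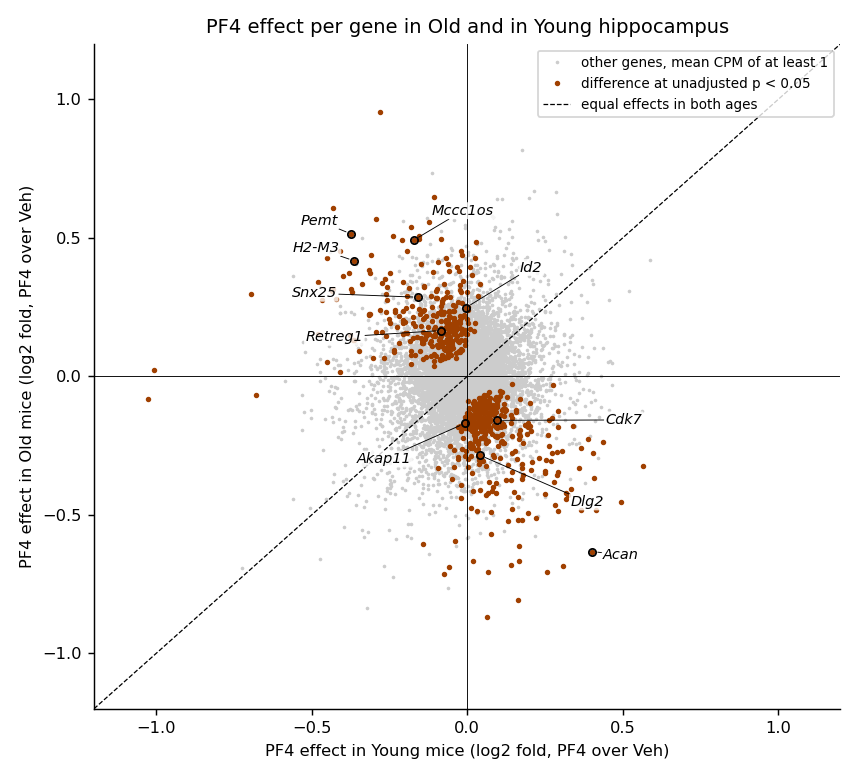
Each point is 1 of the 16841 genes with a mean of at least 1 CPM, with its PF4 effect in Young mice (x axis, log2) against its effect in Old mice (y axis, log2). Genes at an unadjusted p under 0.05 for the difference (brown) lie away from the dashed line of equal effects, and 10 named genes are circled. No gene passed the adjusted test.

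The difference is described below for 54 lists of genes by the count of members on each side of 0 and by their median, and most of these medians depended on single libraries. Leaving out 1 library moved the median by over 1.5 times or turned its sign in 47 of the 54 lists, and 1 of the 12 alternatives did so in 50. The 7 lists with no such library were the blood cell, microglia, immature dentate granule neuron, A-kinase, cytolinker, amyloid precursor processing and chromatin regulator lists. The blood cell, microglia and A-kinase lists alone held within 1.5 times under each library left out and each alternative that gave a value. The medians therefore describe these 47 libraries. That of the blood cell list came from the 4 of 12 listed genes that were tested, at a median of 1.27 CPM. Their differences ran from -1.23 to 0.60, 3 above and 1 below 0.

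Akap11, which encodes an anchoring protein that holds protein kinase A in place, was singled out by the study and lies on chromosome 14, 78492246 to 78536808 on the minus strand (GRCm38). Its level was 263.7 to 312.3 CPM in Young Veh (median 281.7), 260.7 to 305.0 in Young PF4 (median 278.0), 336.6 to 387.6 in Old Veh (median 357.6) and 299.4 to 340.2 in Old PF4 (median 318.8). PF4 and Veh overlapped in Young mice, whereas 9 of the 10 Old PF4 libraries lay below every Old Veh library. The Old effect was -0.17 (adjusted p = 0.0314 in edgeR) and the Young effect -0.0071, which gave a difference of -0.16 (standard error 0.046, 95% interval -0.25 to -0.071). Its p was 0.00081 before and 0.853 after adjustment. Leaving out each library in turn kept the difference between -0.18 and -0.15.

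Among the other 27 genes for A-kinase anchoring proteins, protein kinase A subunits and CREB family factors, 1 more was at an unadjusted p under 0.05. That was Akap13, an anchoring protein that also activates a small GTPase, with a difference of -0.20 (standard error 0.079, p = 0.0153, adjusted p = 1.0). Of all 28 A-kinase anchoring, PKA and CREB genes, 10 had a difference above 0 and 18 below, with a median of -0.059, beside a median of 0.014 and a share of 55.4% above 0 over all genes tested. None passed the adjusted test. The median was -0.078 for the Old effect and -0.0036 for the Young effect.

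In the list of 18 GABA-A receptor and inhibitory synapse genes, 5 lay above and 13 below 0 (median -0.043). With the length index described below as a covariate, 9 of the 18 lay above 0 and the median was -0.0051. Gabrb1, a GABA-A receptor beta subunit, was at an unadjusted p under 0.05 (difference -0.11, p = 0.0363, adjusted p = 1.0).

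Among 43 methyl-DNA and chromatin regulator genes 12 lay above 0 and 31 below, with a median of -0.053 (-0.035 with the covariate). Members at an unadjusted p under 0.05 included the zinc finger factor Hivep2 (-0.19, p = 0.000689, adjusted p = 0.853) and the histone methyltransferase Ash1l (-0.14, p = 0.0454, adjusted p = 1.0). Hivep2 is overlapped by 2 predicted genes on the opposite strand holding 8.27% as many reads as its own, and the libraries were not stranded.

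**Figure D2:**
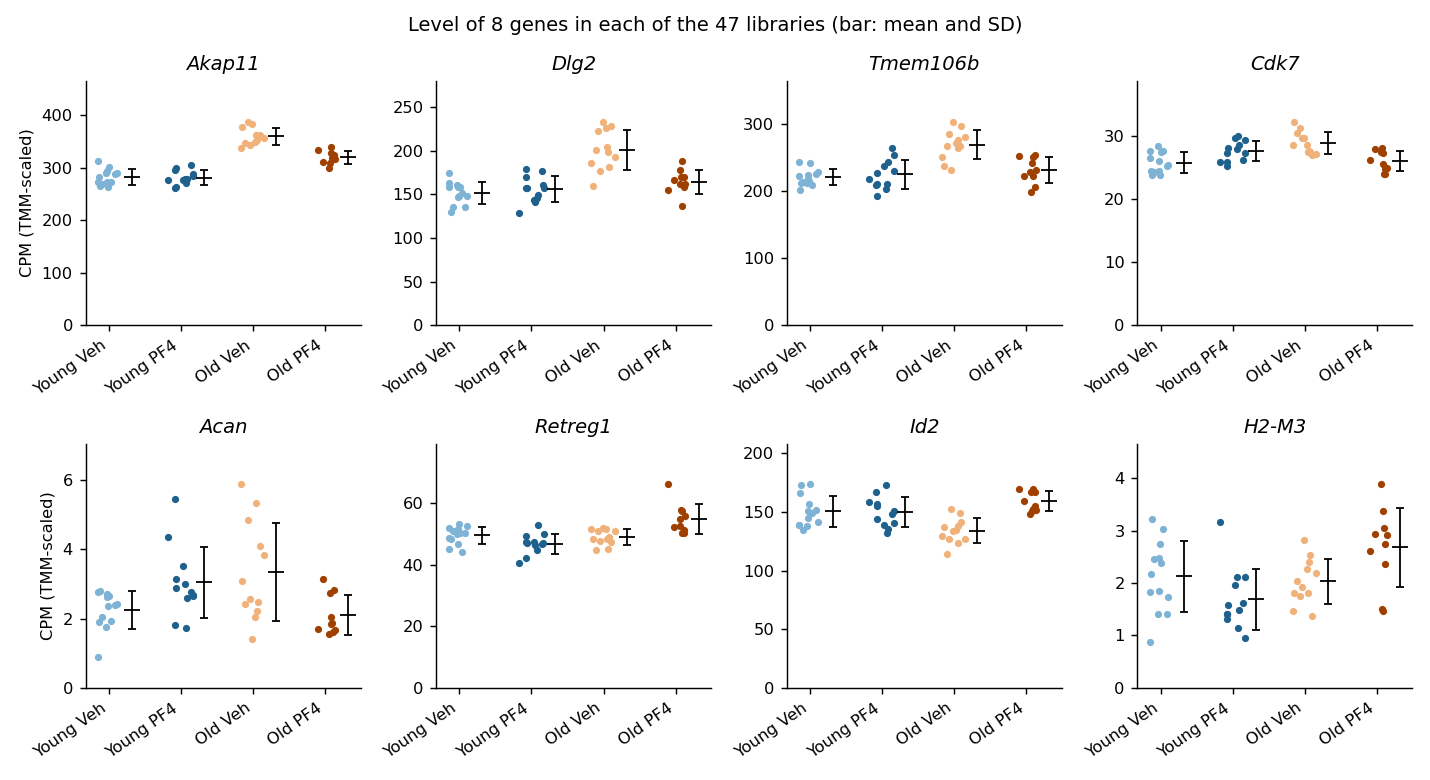
The panels show the level of 8 genes (y axis, CPM from 0) in each of the 47 libraries by group, with the group mean and SD beside the points. In Akap11, Dlg2, Tmem106b and Cdk7 the Old PF4 points lie below most Old Veh points, in Retreg1 and Id2 above most, and in all of these the Young groups overlap. In Acan and H2-M3, with under 7 CPM in each library, the groups of both ages overlap.

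Among synaptic scaffold genes the smallest p of the whole comparison was that of Dlg2, which encodes PSD-93, a scaffold of NMDA receptors in the postsynaptic density (chromosome 7, 90476672 to 92449247, plus strand). Its level was 129.2 to 174.3 CPM in Young Veh (median 151.2), 128.7 to 178.9 in Young PF4 (median 157.2), 159.2 to 233.2 in Old Veh (median 199.1) and 136.4 to 188.1 in Old PF4 (median 164.1). All 10 Old PF4 libraries were under the Old Veh median, but only 3 were under the lowest one. The Old effect of -0.29 was called (adjusted p = 0.0354 in edgeR) and the Young effect was 0.042. The difference was -0.33 (standard error 0.080, 95% interval -0.49 to -0.17, p = 0.000143, adjusted p = 0.728). Genes lying within Dlg2 held 203% as many reads as Dlg2 itself, 8 of them on the opposite strand, and without strand their reads cannot be told apart from its own where they overlap.

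Of 29 postsynaptic density and spine genes, 10 lay above 0 and 19 below (median -0.021, and -0.025 with the covariate). The median was -0.073 without the low-depth libraries and -0.050 without Young PF4 replicate 8. The median transcript of the list was 5524 bases. At an unadjusted p under 0.05, 58 of 1765 genes of 5013 to 6536 bases lay below 0, and 160 of 1767 longer ones. All 4 members at an unadjusted p under 0.05 lay below 0, where 2.16% of all genes tested did, and none passed adjustment. Beside Dlg2 these were Kalrn, a GTPase exchange factor of spines (-0.21, p = 0.00243), Dlgap2, a partner of PSD-95 (-0.21, p = 0.0196), and Shank2, a master scaffold (-0.15, p = 0.0498), each with an adjusted p of 1.0. Kalrn ran from 329.4 to 426.8 CPM in Old Veh (median 367.7) and from 274.6 to 345.3 in Old PF4 (median 322.0), against medians of 325.4 and 326.7 in Young Veh and Young PF4. Thus 10 of 10 Old PF4 libraries were under the Old Veh median, and 6 of 12 Young PF4 libraries were above the Young Veh median.

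Receptor and release genes also lay on both sides of 0. Of 23 ionotropic glutamate receptor genes 14 lay below 0 (median -0.034, but -0.020 with the covariate and -0.0051 without Young Veh replicate 4), with only Grin2b, the GluN2B subunit of NMDA receptors, at an unadjusted p under 0.05 (-0.22, p = 0.0175, adjusted p = 1.0). Grin2b covered 350.1 to 501.9 CPM in Old Veh and 269.6 to 478.2 in Old PF4, so these groups overlapped widely. Of 32 presynaptic release genes 13 lay above 0 and 19 below (median -0.0068, and 0.0065 with the covariate), with Cplx2, a complexin that clamps vesicle fusion (-0.20, p = 0.0194), and Bsn, the active zone scaffold bassoon (-0.26, p = 0.0314), at an unadjusted p under 0.05. The 22 neurexin and partner adhesion genes split evenly, 11 above and 11 below 0, with none at an unadjusted p under 0.05 and a smallest p of 0.0912 for Cntnap1.

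Genes for transport along and linkage of the cytoskeleton lay mostly below 0. Kif1b, a kinesin that carries synaptic vesicle precursors, and Kif5c, a conventional kinesin of axons, had differences of -0.15 each (p = 0.00171 and 0.0149, adjusted p = 0.93 and 1.0), in a list of 31 kinesin and dynein genes of which 18 lay below 0 (median -0.026, and -0.0054 with the covariate). Of 28 cytolinker and spectrin cytoskeleton genes 21 lay below 0 (median -0.050). With the length index as a covariate 12 of the 28 lay above 0 and the median was -0.015. The list's 4 members at an unadjusted p under 0.05 had an adjusted p of 1.0 each. Plec (-0.20, p = 0.00387), the spectrin Sptan1 (-0.18, p = 0.0134) and the dendritic microtubule protein Map2 (-0.090, p = 0.0432) lay below 0. The non-muscle myosin Myh9 lay above it (0.24, p = 0.0419). At an unadjusted p under 0.05, 2.16% of all genes tested lay below and 1.77% above 0. Among genes of 6537 bases and more 160 of 1767 lay below, and the list's median transcript was 8601.5 bases. Plec, which encodes plectin, was one of the genes called in Old mice (-0.25, adjusted p = 0.0314 in edgeR). It ran from 104.4 to 126.5 CPM in Old Veh and from 79.4 to 105.5 in Old PF4, with 9 of 10 libraries under the lowest Old Veh library, and in Young mice 10 of 12 PF4 libraries were also under the Veh median (Young effect -0.054).

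Membrane traffic held genes on both sides of 0. Retreg1, a receptor for autophagy of the endoplasmic reticulum also known as FAM134B, had the smallest p among genes above 0 (chromosome 15, 25843180 to 25973687, plus strand). Its level was 44.2 to 53.0 CPM in Young Veh (median 50.3), 40.6 to 52.8 in Young PF4 (median 47.02), 44.6 to 51.9 in Old Veh (median 48.6) and 50.2 to 66.0 in Old PF4 (median 53.7). In Old mice 10 of 10 PF4 libraries were above the Veh median, and in Young mice 11 of 12 were below it. The difference was 0.25 (standard error 0.062, 95% interval 0.13 to 0.37, p = 0.000166, adjusted p = 0.728), and 0.21 without Old PF4 replicate 11, the highest library.

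Of 31 ER to Golgi coat genes 22 lay above 0 (median 0.035), but 15 did so with the length index as a covariate and the median was then -0.0032. At an unadjusted p under 0.05 were 3 members, where 3.93% of all genes tested were, and they pointed both ways. Sec16a, which organises the exit sites where coated vesicles leave the endoplasmic reticulum, had a difference of -0.28 (p = 0.000414, adjusted p = 0.828), and Sec24a, a cargo adaptor of that coat, one of -0.22 (p = 0.0198, adjusted p = 1.0). Arfgap3, which switches off the small GTPase of the Golgi coat, had one of 0.25 (p = 0.00112, adjusted p = 0.927) and was called in Old mice (0.25, adjusted p = 0.0465 in edgeR), where it ran from 16.38 to 22.003 CPM in Veh and from 19.7 to 25.7 in PF4. In the list of 27 ER folding and unfolded protein response genes 21 lay above 0 (median 0.060, but 0.021 with the covariate and 0.0065 without Old PF4 replicate 8), with Pdia4, a disulfide isomerase, at a difference of 0.30 (p = 0.00701, adjusted p = 1.0).

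Among 35 lysosomal genes 26 lay above 0 (median 0.025), but 20 did so with the length index as a covariate (median 0.018). The member with the smallest p lay below 0. Tmem106b, a lysosomal membrane protein linked to frontotemporal dementia, ran from 201.8 to 243.5 CPM in Young Veh, 192.1 to 263.2 in Young PF4, 231.1 to 303.1 in Old Veh and 198.9 to 253.0 in Old PF4. Every Old PF4 library was under the Old Veh median, and 5 of 10 were under the lowest Old Veh library. Its difference was -0.25 (standard error 0.067, p = 0.000596, adjusted p = 0.853). Lamp1, an abundant lysosomal membrane protein, had a difference of 0.11 (p = 0.0137, adjusted p = 1.0).

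Other genes with small p and a difference below 0 were of varied function. Cdk7, the kinase of the general transcription factor TFIIH, ran from 23.8 to 28.5 CPM in Young Veh (median 25.4), 25.3 to 30.1 in Young PF4 (median 27.7), 27.03 to 32.3 in Old Veh (median 28.6) and 23.9 to 28.1 in Old PF4 (median 25.9). In Old and in Young mice the PF4 libraries lay to opposite sides, with 10 of 10 Old PF4 libraries under and 11 of 12 Young PF4 libraries over the median of their Veh group, for a difference of -0.25 (standard error 0.062, p = 0.000151, adjusted p = 0.728). Hectd4, a ubiquitin ligase of the HECT family, had a difference of -0.20 (p = 0.000739, adjusted p = 0.853). Acan, which encodes aggrecan of the perineuronal nets around inhibitory neurons, had the largest size among the 20 genes named by rank, -1.03 (standard error 0.26, 95% interval -1.55 to -0.52, p = 0.000198, adjusted p = 0.728). Its levels were low, from 0.9 to 5.9 CPM, and medians were 2.4 in Young Veh, 2.8 in Young PF4, 2.8 in Old Veh and 1.9 in Old PF4. No Old PF4 library lay under the lowest Old Veh library, and 6 of 12 Young PF4 libraries lay above every Young Veh library.

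Genes with small p and a difference above 0 were led, after Retreg1, by Snx25, a sorting nexin (0.44, p = 0.000325, adjusted p = 0.828), and Id2, an inhibitor of basic helix-loop-helix factors. Id2 ran from 134.6 to 173.6 CPM in Young Veh (median 149.4), 132.4 to 173.4 in Young PF4 (median 149.7), 114.5 to 152.6 in Old Veh (median 134.3) and 148.1 to 169.7 in Old PF4 (median 157.4). Old PF4 lay above every Old Veh library in 7 of 10 mice and the Young groups coincided. The Old effect of 0.25 was called (adjusted p = 0.0314 in edgeR), the Young effect was -0.0041, and the difference was 0.25 (standard error 0.067, p = 0.000419, adjusted p = 0.828). In the list of 17 Id and E-protein genes Id2 alone was at an unadjusted p under 0.05, and 10 lay above 0 (median 0.077, but 0.015 with the covariate and -0.00024 in limma-voom). Stard10, a lipid transfer protein (0.40, p = 0.00131), Pemt, which makes phosphatidylcholine by methylation (0.89, p = 0.00185), Dennd5a, an exchange factor for a Rab GTPase (0.19, p = 0.00333), Adss, of purine synthesis (0.20, p = 0.00338), and Mccc1os (0.66, p = 0.000787) completed the set, with adjusted p from 0.853 to 1.0. Snx25 and Mccc1os lie opposite other genes, whose reads came to 104% and 1019% of their own, and these reads cannot be told apart without strand.

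Over the 20 genes named by rank, those above 0 and those below 0 differed in transcript length. The 10 genes above 0 had a median longest transcript of 2695 bases and the 10 below 0 one of 9080.5 bases, beside 3150 bases over all genes tested. The Old effect was the larger in size in 20 of the 20 and had the opposite sign to the Young effect in 9 of 10 above and 9 of 10 below 0, where the choice of genes by the difference favours both, and where the shares over all genes tested were 62.7% and 52.5%. The same relation ran through the whole table. In the 10% of genes with the shortest transcripts (up to 1200 bases) the median difference was 0.059 and 64.5% lay above 0, and in the 10% with the longest (6537 bases and more) the median was -0.053 and 29.9% lay above 0. Those longest genes held 160 of the 384 genes below 0 at an unadjusted p under 0.05, and 11 of the 314 above. Between these classes the median Old effect went from 0.049 to -0.047 and the median Young effect from -0.010 to 0.0049. Between the 4420 shortest and the 4420 longest genes the median differed by 0.074 on the log2 scale with all libraries, by 0.035 without Young Veh replicate 4 and by 0.034 in limma-voom. The direction in Young mice rested on that library, since the median Young effect was -0.011 in the short and 0.0014 in the long genes with all libraries, but 0.018 and -0.0077 without it, and 0.0070 and -0.0018 in limma-voom, sloping then as in Old mice. The median Old effect was 0.037 in the short and -0.023 in the long genes with or without that library.

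**Figure D3:**
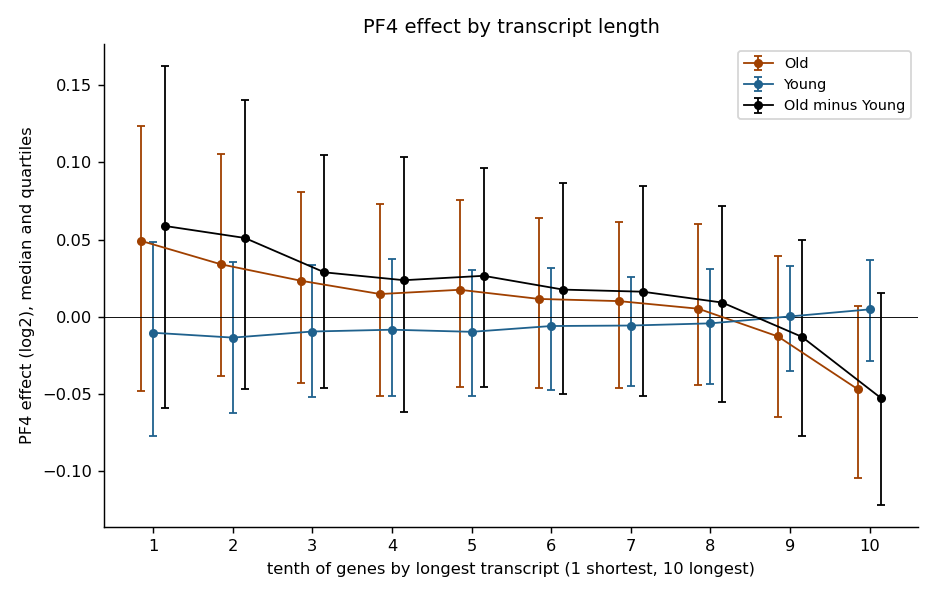
Genes were divided into 10 equal classes by their longest annotated transcript (x axis), and the points and bars are the median and quartiles of the PF4 effect in Old, in Young and of the difference (y axis, log2). The Old effect and the difference decline with length and cross 0 at the ninth class, and the quartiles of neighbouring classes overlap.

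To place each library on this gradient, a length index was taken as the average centred log2 level of the 4420 longest genes less that of the 4420 shortest. In Young mice the index was -0.017 ± 0.12 with Veh (SD, n = 13) and -0.00012 ± 0.083 with PF4 (SD, n = 12). In Old mice it was 0.039 ± 0.072 with Veh (SD, n = 12) and -0.025 ± 0.079 with PF4 (SD, n = 10). The groups overlapped, and the difference of its PF4 effect between the ages, -0.081, did not pass a two-sided permutation test (100000 permutations of residuals, p = 0.129, adjusted p = 0.29 over 7 library-level values). The lowest of all 47 libraries was Young Veh replicate 4 at -0.35, with the other Young Veh libraries between -0.077 and 0.18, and without it the difference of the index was -0.054. In Old PF4 the lowest library stood at -0.23 and the other 9 between -0.066 and 0.039. With the index as a covariate, the median difference was -0.011 in the short and -0.0009 in the long genes. The index was made from these same genes in these libraries, so the covariate takes away their gap by construction. That outcome is no test of length. Gene list medians with the covariate share this limit to the extent that their members belong to the index genes. In that fit 858 genes were at an unadjusted p under 0.05, 423 of the 698 genes among them with the same sign, and in Old mice 0 genes were called. Whether length or what goes with it in RNA or library preparation had a part in the differences was not tested.

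**Figure D4:**
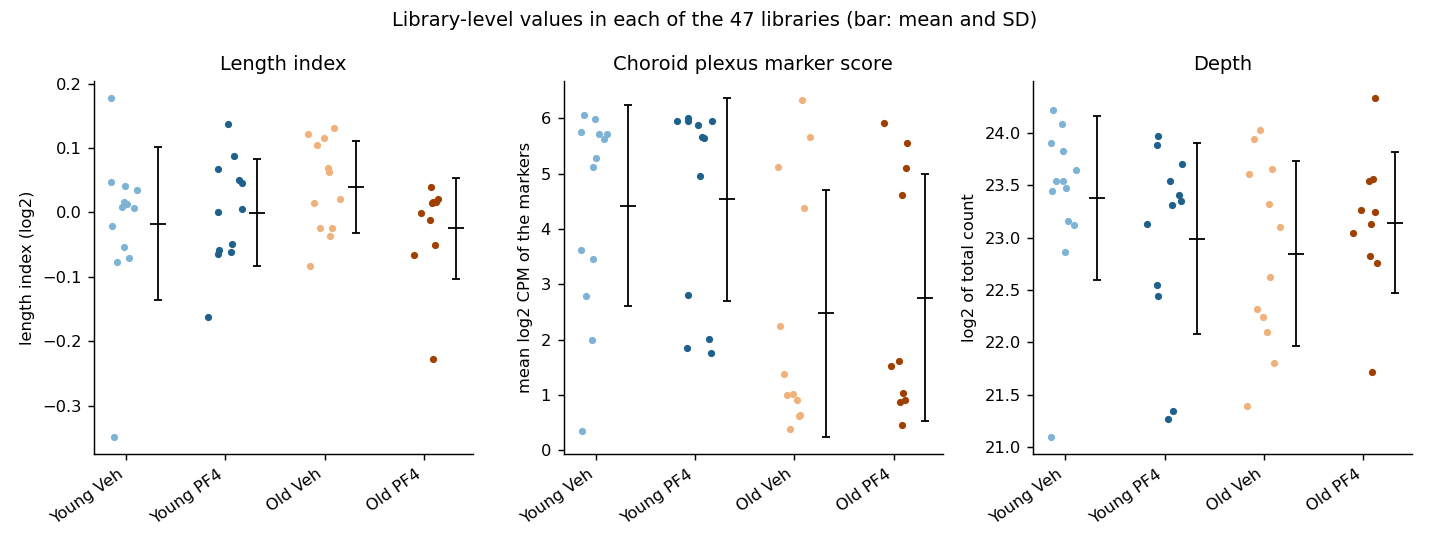
The length index (log2), the choroid plexus marker score (mean log2 CPM) and the log2 total count are plotted for each library by group, with mean and SD. The 4 groups overlap in all 3 values, choroid plexus scores fall into high and low libraries in each group, and low libraries are most of the Old groups.

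Nuclear gene families of short transcripts lay mostly above 0. Of 81 nuclear genes of the respiratory chain, 76 had a difference above 0 (median 0.078, median Old effect 0.073, median Young effect -0.0075), with a median transcript of 1003 bases. The members at an unadjusted p under 0.05 were Atp5l (0.27, p = 0.0115), Ndufc1 (0.28, p = 0.0428), Cox7c (0.24, p = 0.044) and Cox7a2l (0.16, p = 0.0448). They come from ATP synthase, complex I and cytochrome oxidase, and none passed adjustment (adjusted p = 1.0 each). With 1 library left out their edgeR p reached 0.0331, 0.114, 0.0942 and 0.145 in this order, and Cox7a2l fell to 0.10. With the length index as a covariate 34 of the 81 lay above 0 and the median was -0.0065, and without Young Veh replicate 4 it was 0.035. Most of these 81 genes belong to the short class of the index, so the covariate sets their median in part by construction. The 8 respiratory chain genes tested that the mitochondrial genome encodes, with a median transcript of 1091 bases, lay on the other side. Of these 2 lay above and 6 below 0 (median -0.050, and -0.051 with the covariate). Among these mt-Co1, the first subunit of cytochrome oxidase, had a difference of -0.15 (p = 0.0412, adjusted p = 1.0). The share of reads on mitochondrially encoded genes had a difference of -0.12 percentage points between the ages (permutation p = 0.166).

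Of 83 cytosolic ribosomal protein genes tested 64 lay above 0 (median 0.084), and 56 did so with the length index as a covariate (median 0.054), while the median was 0.049 without Old PF4 replicate 11. Rpl14 (0.18, p = 0.0311), Rps12 (0.32, p = 0.0401), Rps9 (0.17, p = 0.0441) and Rpl35 (0.38, p = 0.0441) were among those at an unadjusted p under 0.05, each with an adjusted p of 1.0. Ribosomal protein genes have many processed pseudogenes, and how the counting divided reads among copies is not given in the sources used here. Of 42 proteasome genes 36 lay above 0 (median 0.055), but the only member at an unadjusted p under 0.05, the activator Psme4 (-0.18, p = 0.0321), lay below it. The median turned negative with the covariate (-0.045, 14 of 42 above 0) and in limma-voom (-0.0042), and it was 0.0056 without Young Veh replicate 4. Metallothionein, ferritin and antioxidant genes lay above 0 in 23 of 29 (median 0.068, but 0.0044 with the covariate and 0.021 without Young Veh replicate 4).

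**Figure D5:**
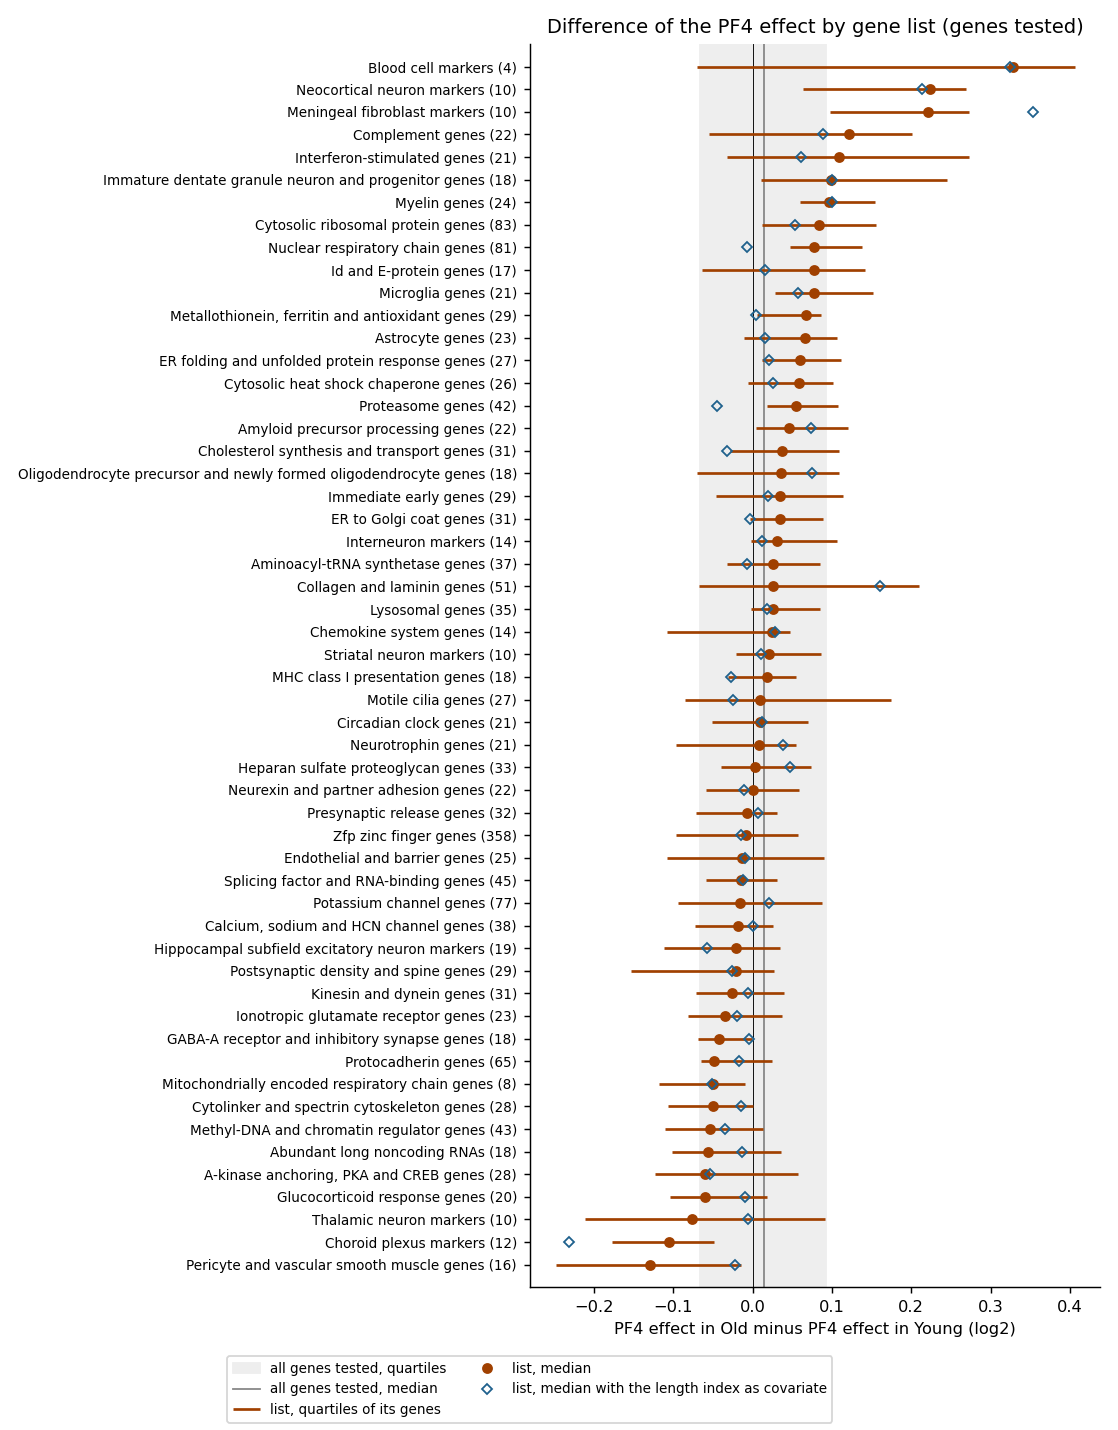
For each of the 54 gene lists (genes tested in parentheses) the filled point and line are the median and quartiles of the difference over its genes (x axis, log2), and the open diamond is the median with the length index as a covariate. The grey band and line are the quartiles and median of all genes tested, and for nuclear respiratory chain and proteasome genes the diamond lies on the other side of 0 from the filled point.

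Among glial lists the myelin, astrocyte and microglia genes lay mostly above 0, with few members at small p. Of 24 myelin genes 21 lay above 0 (median 0.097, median Old effect 0.050, median Young effect -0.045), none at an unadjusted p under 0.05. The smallest p was 0.0644 for Cldn11, a tight junction protein of the myelin sheath (0.25). With the length index as a covariate 17 of 24 lay above 0 (median 0.10). Of 18 oligodendrocyte precursor and newly formed oligodendrocyte genes 10 lay above 0 (median 0.035), a share near that of all genes tested. Of 23 astrocyte genes 16 lay above 0 (median 0.065), and 14 with the covariate (median 0.015), with Aldh1l1, a marker enzyme of astrocytes (0.17, p = 0.0479), above 0 and Slc4a4, a bicarbonate transporter (-0.18, p = 0.0431), below 0. Of 21 microglia genes 17 lay above 0 (median 0.077, and 0.057 with the covariate). Trem2, a lipid-sensing receptor of microglia, was the one at an unadjusted p under 0.05 (0.35, 95% interval 0.047 to 0.65, p = 0.0246, adjusted p = 1.0). It ran from 8.2 to 13.0 CPM in Old Veh and from 8.2 to 21.1 in Old PF4. With 1 library left out its difference ranged from 0.22 to 0.40, and its edgeR p reached 0.0978.

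PF4 belongs to the chemokine system, of which 14 of 26 listed genes had counts enough to be tested. Of these 9 lay above 0 and 5 below (median 0.024), and none was at an unadjusted p under 0.05. The median was -0.010 without the low-depth libraries and -0.011 without Old PF4 replicate 3. Pf4 itself (chromosome 5, 90772435 to 90773383, plus strand) had 1 to 19 reads in a library and medians of 0.7 CPM in both Young groups, 0.4 in Old Veh and 0.5 in Old PF4. Its difference was 0.60 with a 95% interval from -0.39 to 1.59 (p = 0.231, adjusted p = 1.0), so the depth did not separate a difference from none. It was 0.93 without Old Veh replicate 10 and 0.43 without Old PF4 replicate 10. The transcript would not show injected protein. Cxcr3 held 19 reads in all and none in 35 of the 47 libraries, and it was not tested. Of 33 heparan sulfate proteoglycan genes, the binding partners of PF4 and their synthesis enzymes, 17 lay above 0 (median 0.0036). With the length covariate 22 of the 33 did (median 0.047), and with 1 library left out the median ranged from -0.016 without Young PF4 replicate 9 to 0.027 without Old PF4 replicate 3, so the list had no stable direction. Among them was Ext1, a polymerase of the chain, at 0.23 (p = 0.0149, adjusted p = 1.0).

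Immune genes of low level gave large values with wide intervals. H2-M3, a class I molecule that presents formylated peptides, had medians of 2.2 CPM in Young Veh, 1.5 in Young PF4, 2.0 in Old Veh and 2.8 in Old PF4, within an overall range of 0.9 to 3.9. In Old mice 8 of 10 PF4 libraries were above the Veh median and in Young mice 11 of 12 were below it, for a difference of 0.78 (95% interval 0.30 to 1.26, p = 0.00188, adjusted p = 0.93). H2-T22, another class I gene, had a difference of 0.41 (p = 0.00373, adjusted p = 1.0). They were the only members at an unadjusted p under 0.05 of 18 MHC class I presentation genes, whose median was 0.018 with 12 above 0 (-0.027 with 8 above 0 with the length covariate, and -0.0085 without Young PF4 replicate 11), and closely similar class I genes can share reads. Of 22 complement genes 14 lay above 0 (median 0.12, but 0.040 without Old PF4 replicate 3). C3, the central complement protein, had a difference of 0.75 (p = 0.0342) and the complement regulator Csmd2 one of -0.27 (p = 0.0495), each with an adjusted p of 1.0. Of 21 interferon-stimulated genes 14 lay above 0 (median 0.11), with a median of 0.050 without Young Veh replicate 4, 0.20 without Old Veh replicate 10, 0.062 with the length covariate and 0.19 without the low-depth libraries. Among them was Usp18, a brake on interferon signalling, at 0.61 (p = 0.0445, adjusted p = 1.0), where the larger effect was the Young one (-0.68, against -0.069 in Old).

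Genes of neurogenesis and of activity went both ways. In the list of 18 immature dentate granule neuron and progenitor genes 14 lay above 0 (median 0.099), with Stmn1, a microtubule regulator of young neurons, at 0.32 (p = 0.015) and Mki67, the proliferation marker, at -0.78 (95% interval -1.33 to -0.22, p = 0.00717), each with an adjusted p of 1.0. Mki67 was scarce, with group medians of 1.45 to 2.0 CPM. Of 29 immediate early genes 19 lay above 0 (median 0.035, but -0.021 in limma-voom), and Npas4, induced by neuronal activity, was at 0.70 (p = 0.0252, adjusted p = 1.0), from 1.5 to 4.1 CPM in Old Veh and 2.0 to 5.6 in Old PF4.

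Vascular lists had medians below 0 that depended on the libraries and the tool. Of 16 pericyte and vascular smooth muscle genes 12 lay below 0 (median -0.13), and Rgs5, a pericyte marker, had a difference of -0.27 (95% interval -0.47 to -0.078, p = 0.00686, adjusted p = 1.0). Without the 8 low-depth libraries the list's median was 0.020, and in limma-voom it was 0.0035. Of 25 endothelial and barrier genes 14 lay below 0 (median -0.013), but the median was 0.019 without the low-depth libraries, 0.027 in limma-voom and -0.068 to 0.051 with 1 library left out. Among them was Tjp1, the tight junction protein ZO-1, at -0.26 (p = 0.00128, adjusted p = 0.93). Tjp1 ran from 42.3 to 55.3 CPM in Old Veh and from 38.4 to 46.7 in Old PF4, where 7 of 10 libraries lay under the lowest Old Veh library.

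The tissue was checked against its markers. The 19 hippocampal excitatory neuron markers were all detected, with summed levels of 2346 to 3210 CPM over the 47 libraries. Their median difference was -0.021 (9 above and 10 below 0), but -0.058 with the length covariate (4 of 19 above 0), -0.060 without the low-depth libraries and 0.010 with the replicate block. Among them was Zbtb20, a factor of hippocampal pyramidal neurons, at -0.19 (p = 0.0339, adjusted p = 1.0). The 12 choroid plexus markers were in every library but at unequal levels, with summed CPM of 31.5 to 4329 in Young Veh, 125 to 3733 in Young PF4, 37.04 to 4642 in Old Veh and 43.7 to 3594 in Old PF4. Their mean log2 score had a difference of 0.17 between the ages (permutation p = 0.88), whereas the median of their gene by gene differences was -0.11 with 10 of 12 below 0. That median was 0.42 in limma-voom, -0.55 without Old PF4 replicate 11 and 0.64 without Old Veh replicate 10, so the markers had no stable direction. Kl, the gene of klotho and itself a choroid plexus marker, followed this spread, with 18.3 to 220.0 CPM in Old Veh and 17.1 to 161.0 in Old PF4. Its difference was -0.098 with a 95% interval of -1.53 to 1.34, and its sign turned with single libraries left out (-0.40 to 0.38), so no direction can be given for it.

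Markers of neighbouring regions were present at low summed levels in each group. The 10 neocortical markers summed to 262 to 379 CPM with 8 of 10 above 0 (median 0.22, but 0.11 without the low-depth libraries and 0.14 without Young Veh replicate 1), where Fezf2, a factor of deep cortical layers, was at an unadjusted p under 0.05 (0.29, p = 0.0132, adjusted p = 1.0). The 10 striatal markers summed to 270 to 358 CPM (median difference 0.021), the 10 thalamic markers to 189 to 831 CPM (median -0.077), the 10 meningeal markers to 48.9 to 349 CPM (median 0.22), and the 12 blood markers to 2.26 to 21.4 CPM (4 tested, median 0.33). The thalamic median turned to 0.11 without the low-depth libraries, 0.15 in limma-voom and 0.10 without Young PF4 replicate 8. The meningeal median was 0.67 without the low-depth libraries and -0.17 without Old PF4 replicate 9, so neither list had a stable direction. The part of these markers in the differences of other genes was not tested. With the choroid plexus score as a covariate, 682 of the 698 genes kept an unadjusted p under 0.05 with the same sign.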

How the data were processed

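Hippocampal RNA of 47 mice was prepared by Smart-Seq2 with Nextera XT, unstranded. Per the labels the authors used Trim Galore 0.3.7, STAR 2.5.3a, GRCm38 and DESeq2; the counting tool and annotation are not given in the sources used here. The authors deposited raw read counts for 35486 genes, without normalization, after leaving out samples of low coverage. No further library was left out, and all columns of the table were used.

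From these counts, edgeR 4.0.16 (R 4.3.3, TMM, filterByExpr, robust quasi-likelihood) was fitted to the 4 groups, with Benjamini-Hochberg adjustment over 17778 genes and calls at an adjusted p under 0.05. DESeq2 1.42.0 and limma-voom (limma 3.58.1) were alternatives, with other filters, covariates and libraries left out. Log2 CPM used a prior count of 2. Transcript lengths and positions came from GENCODE annotation of GRCm38 (17666 genes, 99.4%). Library-level values were tested by permuting residuals of the additive model. Steps were tested on simulated counts.

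Genes named were 6 chosen for the study's subject (Akap11, Pf4, Kl and Cxcr3 among them), the 10 of smallest p in each direction with a mean of at least 1 CPM (3 predicted genes passed over), those called in Old or Young mice, and in each of 54 gene lists the members at an unadjusted p under 0.05, otherwise the member of smallest p, of which some are not reported here. Members and lists were chosen with earlier results of these data known, so lists are described by counts and medians without a set test. Each library was 1 mouse. No sequences were used.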

Additional observations from a re-analysis of the deposited data

Results flagged for a closer look

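In the Old PF4 group (n = 10), 31 values were checked for a library standing apart from the rest, by the gap to its nearest neighbour as a share of the group's range (Dixon's test), and 5 exceeded it. Such a check marks about 5% of groups when nothing stands apart. Old PF4 replicate 8 had a length index of -0.228, with the other 9 libraries between -0.066 and 0.039, and the second principal component of the 500 most variable genes placed it at 11.08, with the others between -2.65 and 2.31. The same library had the lowest Hectd4 level, 7.04 log2 CPM against 7.27 to 7.36. Old PF4 replicate 11 had the highest Retreg1 level, 6.05 log2 CPM against 5.66 to 5.86, and Old PF4 replicate 7 the lowest Hivep2 level, 7.23 log2 CPM against 7.34 to 7.45. Without these libraries in turn the differences between the ages were -0.18 for Hectd4, 0.21 for Retreg1 and -0.18 for Hivep2, of the same sign as with them. What sets these libraries apart was not tested.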

How the results depend on the processing

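For the difference between the ages, 0 genes were called under 11 of 12 alternatives and with each of the 47 libraries left out, with a smallest adjusted p from 0.123 in limma-voom to 1.0 without the 8 low-depth libraries. The exception was no count filter, which called 1, Gm26519, a predicted gene with 71 reads in 21 libraries (adjusted p = 0.020). The number of genes at an unadjusted p under 0.05 was 1130 in limma-voom, 1417 without the count filter, 600 without the low-depth libraries and 614 to 799 with 1 library left out. The calls in Old mice (6) became 24 in DESeq2, 39 in limma-voom, 14 with age in months as a covariate, and 0 with the length index or library number as a covariate or without the low-depth libraries, and ranged from 0 to 19 with 1 library left out. Young mice had 0 calls throughout, and 348 genes at an unadjusted p under 0.05 without Young Veh replicate 4, where all libraries gave 210. That count was 465 in limma-voom, 879 without the count filter and 96 with a mean CPM of at least 5, and in Old mice 1833 without the filter against 1091. The cause of these changes was not tested. Robust estimation was dropped as an alternative chosen after seeing the data, which gave 0, 6 and 0 calls.

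Of 54 gene list medians, 33 kept their sign under every alternative that gave a value and 28 also with each library left out. Other scalings turned the neurexin and partner adhesion genes (main median 0.00031), and DESeq2 also the neurotrophin genes (-0.017). Medians beyond the spread between libraries were -0.00024 for Id and E-protein genes in limma-voom and -0.032 for cholesterol synthesis and transport genes with the length index covariate, and aminoacyl-tRNA synthetase genes ranged from -0.020 to 0.031 with 1 library left out, the lowest without Old PF4 replicate 8. Among the named genes Kl turned positive with the age covariate (0.0065) and in limma-voom (0.20) and ranged from -0.40 to 0.38 with 1 library left out. Otx2, a choroid plexus factor, turned positive with the choroid plexus covariate (0.033), in limma-voom (0.58) and with the replicate block (0.094), and ranged from -0.63 to 0.50. For the second principal component the difference was -0.90 without the low-depth libraries, and with 1 library left out it ranged from -1.10 to 0.67, the first component from -2.28 to 0.67 and the choroid plexus score from -0.18 to 0.52.

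With the replicate block the difference had 0 calls, Old mice 9 and Young mice 0. Replicate numbers showed no clear pairing of the samples. Over 66 same-numbered pairs the median correlation of deviations was -0.0063, against -0.0146 over 760 other pairs. Of the same-numbered pairs 21 were over 0.1, with a highest value of 0.554, and 6 libraries correlated best with their own number. This check cannot exclude a weak pairing.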

Other observations

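Ion channel families had medians near 0 whose sign depended on the setting. Of 77 potassium channel genes 35 lay above 0 (median -0.016, but 0.021 with the length index as a covariate, 0.023 in limma-voom and 0.0054 with the choroid plexus score as a covariate), with, among others, Kcnt2 (-0.24, p = 0.018) and Kcnj6 (-0.19, p = 0.0437) below and Kcns3 (0.28, p = 0.0181) above 0 at an unadjusted p under 0.05. Of 38 calcium, sodium and HCN channel genes 16 lay above 0 (median -0.018, but -0.0001 with the length covariate and 0.0014 without Young Veh replicate 4), with the sodium channel Scn3a (-0.19, p = 0.00528) and the L-type calcium channel Cacna1c (-0.27, p = 0.0193) below. Protocadherin genes lay below 0 in 41 of 65 (median -0.048, and -0.017 with the covariate), none at an unadjusted p under 0.05. Each of these genes had an adjusted p of 1.0.

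Zinc finger genes of the Zfp series, 358 tested, had a median of -0.0080, with 6 below and 3 above 0 at an unadjusted p under 0.05, a smaller share than the 3.93% of all genes tested. The lowest p among them were those of Zfp106 (-0.16, p = 0.00138) and Zfp445 (-0.20, p = 0.00143), both with an adjusted p of 0.93. Among 21 circadian clock genes 11 lay above 0 (median 0.0088), with Clock at -0.15 (p = 0.0395). In 20 glucocorticoid response genes the median was -0.060, but -0.010 with the covariate, -0.029 without the low-depth libraries and -0.027 without Old PF4 replicate 3, and Arrdc2 (-0.31, p = 0.0418) owed most of its difference to the Young effect of 0.28. Among 18 abundant long noncoding RNAs 11 lay below 0 (median -0.057, but -0.013 with the covariate), with Mir124a-1hg (-0.27, p = 0.0174), host of a neuronal microRNA, and Snhg14 (-0.20, p = 0.0315) at an unadjusted p under 0.05. Adjusted p was 1.0 for Clock, Arrdc2, Mir124a-1hg and Snhg14.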
